A study of Brachypodium distachyon with 7 samples.

Results

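H3K27me3 and H3K4me3 were compared across genes in seedlings of the grass Brachypodium distachyon that had never been in the cold. The 3 libraries of this state, of 7 in the series, were 1 chromatin immunoprecipitation library of H3K27me3 and 2 of H3K4me3. All came from the diploid line ABR1, from pooled above-ground parts of untreated plants (V0) taken 17 days after sowing, grown at 24 °C under long days (16 h of light, 8 h of darkness). The labels name 1 H3K4me3 library as a biological replication, without saying whether the plants were sown separately. Its spread may therefore be technical, and H3K27me3 has no replicate. The labels give no separate tissue within the shoot, so each value is an average over all cell types of the aerial part, in which a mark in few cells and a weak mark in many cannot be told apart.

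H3K4me3 (trimethylation of lysine 4 of histone H3) is laid down around the start of transcribed genes. H3K27me3 (trimethylation of lysine 27) is written by Polycomb repressive complex 2 and covers silenced genes, in plants often regulators of development that are used in other organs or at other times. In vernalization, the promotion of flowering by long cold, Polycomb marking at flowering genes is known to be altered by cold. The never-cold state is the baseline from which such changes start.

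Of 16434 genes listed for at least 1 mark, 9880 were listed for H3K4me3 alone, 4682 for H3K27me3 alone and 1872 for both. H3K27me3 was thus listed at 39.9% of these genes, H3K4me3 at 71.5% and both at 11.4%. Genes with both marks made up 28.6% of the 6554 genes of the H3K27me3 list and 15.9% of the 11752 genes of the H3K4me3 list. Each mark's list held the same genes in all 3 conditions of the series, so being listed is not a property of never-cold seedlings alone; the levels were taken from V0. A gene outside a list has no value for that mark and is not a measured zero. Below, a gene is said to have or carry a mark when it is listed for it.

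Many H3K4me3 genes shared 1 exact value per library, 22.31 at 1139 genes in library 1 and 23.2 at 74 genes in library 2. These repeated values were treated as filled in and left out of all levels. At the genes filled in library 1, library 2 had a median of 55.3, close to its overall median of 55.6, and at those filled in library 2, library 1 had 38.3, below its overall 45.4. Filled genes were spread over the classes: 10.7% of genes with both marks and 9.50% of H3K4me3-only genes were filled in library 1, and 0.694% and 0.617% in library 2. A level in both libraries remained for 10542 genes, 1662 of them with both marks. Library 2 was higher than library 1 by a median factor of 1.19, and the Spearman correlation across these genes was 0.863. A gene's percentile, its rank within the list from 0 to 100, differed between the libraries by a median of 7.85 points and by 26.5 points at the 90th percentile of genes. Since the marks were pulled down with different antibodies and the signal's normalization is not given in the sources used here, marks were compared by percentile.

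The marks differed in how evenly they were distributed over genes. H3K27me3 signal had a median of 117, with 38.7 at the 10th and 434 at the 90th percentile, an 11.2-fold range. H3K4me3 ranged 3.88-fold between the same percentiles, from 20.3 to 78.7 around a median of 51.1, and 4.06-fold and 3.56-fold in its libraries taken singly. The highest decile (10%) of genes held 35.5% of the summed H3K27me3 signal and 18.4% of the summed H3K4me3 signal. In shape, H3K4me3 formed a single peak with a tail of low genes, while H3K27me3 was spread broadly. These ranges and shapes cover listed genes only. The lowest listed value was 27.3 for H3K27me3 and 7.79 for mean H3K4me3, and what set these lower ends is not known here.

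**Figure D1:**
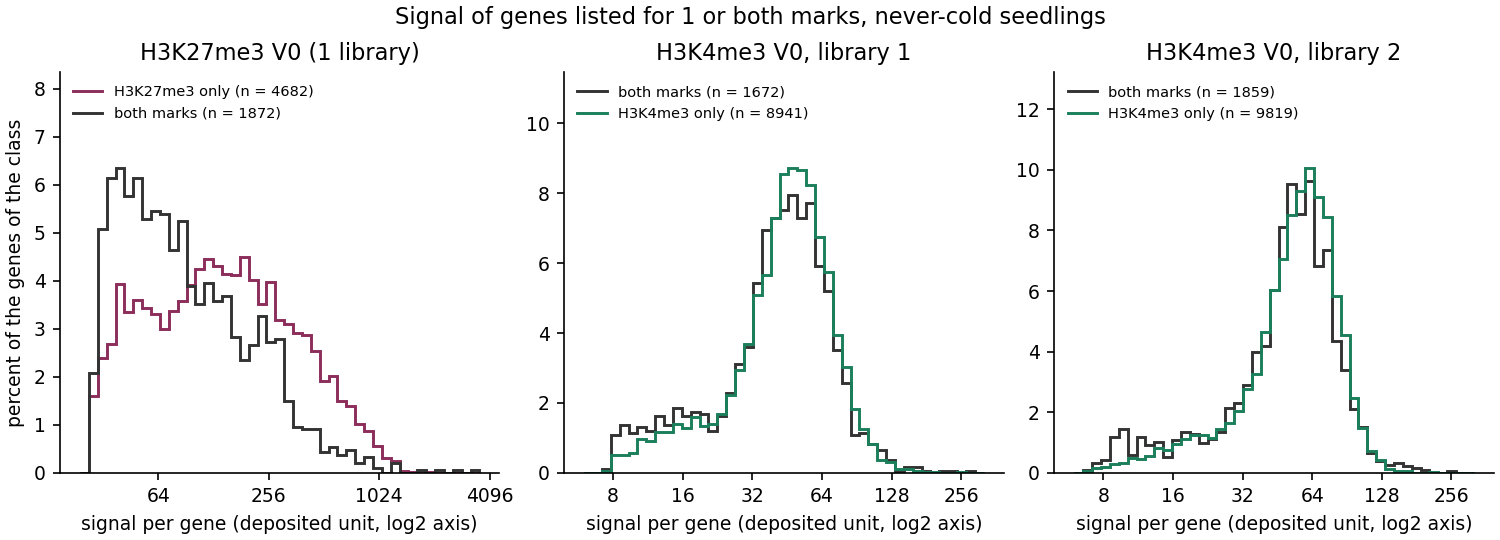
Distribution of signal per gene (log2 axis, deposited unit) as percent of the genes of each class, for H3K27me3 and both H3K4me3 libraries of never-cold seedlings, without filled values. Genes with both marks are shifted to low H3K27me3 (median 77.4 against 138 for H3K27me3-only genes) and differ little in H3K4me3, apart from a larger low tail. Library 1 values of 1031 and 554 at 2 genes lie beyond the axis.

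The highest H3K27me3 levels were at Bradi2g32910, with 3465, and at Bradi2g06330, with 2829.5. Both genes were also listed for H3K4me3, the first with 57.6 and 47.7 in libraries 1 and 2, at percentiles 72.9 and 35.6, so that its rank is uncertain. The second lay near the bottom of that list in both (11.5 and 8.70). The highest mean H3K4me3 levels, at Bradi2g42360 and Bradi1g04140, rested on library 1. They had 1031 and 554 there but 88.6 and 108 in library 2, at percentiles 92.3 and 98.2. No gene descriptions were available for these loci.

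Genes carrying both marks had low H3K27me3. Their median lay at percentile 35.0 of the H3K27me3 list, against 56.1 for genes listed for H3K27me3 alone, a difference of -21.1 points. In signal these medians were 77.4 and 138. Of the genes with both marks, 13.4% were in the top quartile of H3K27me3 and 36.0% in the bottom quartile, against 29.6% and 20.6% of H3K27me3-only genes. With the ranks of the H3K27me3 library from seedlings returned to warmth (V30N) in place of V0, the difference was -22.3 points. That library is another condition, but its H3K27me3 ranks correlated with those of V0 at a Spearman correlation of 0.978 over 6554 genes.

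The share of genes also listed for H3K4me3 was lower toward the top of the H3K27me3 ranking, though not at every step. It was 43.1% in the decile of genes with the lowest H3K27me3, 39.3% in the fourth decile, 25.5% in the sixth, 19.5% in decile 7, 23.7% in decile 8 and 10.8% in the highest, where 71 of 655 genes were listed for H3K4me3. At the very top the share was not lower still: 18.0% of the 50 highest genes (9 genes), 14.0% of the 100 highest and 11.5% of the 200 highest. Ranked by the libraries from the end of the cold (V30) and from V30N, the lowest decile held 48.4% and 42.9% and the highest 10.4% and 10.5%. From the H3K4me3 side the gradient was shallow. H3K27me3 was listed at 20.6% of genes in the lowest decile of H3K4me3 and at 15.2% in the highest, with 21.1% and 14.4% by library 1 and 21.1% and 14.7% by library 2. Within the highest decile the share was uneven: of the 50 genes with the highest mean H3K4me3, 17 (34%) also had H3K27me3. By library 1 or 2 alone these were 12 and 20 genes, and among the top 200 the share was 21.0%, or 21.0% and 21.5% by library.

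**Figure D2:**
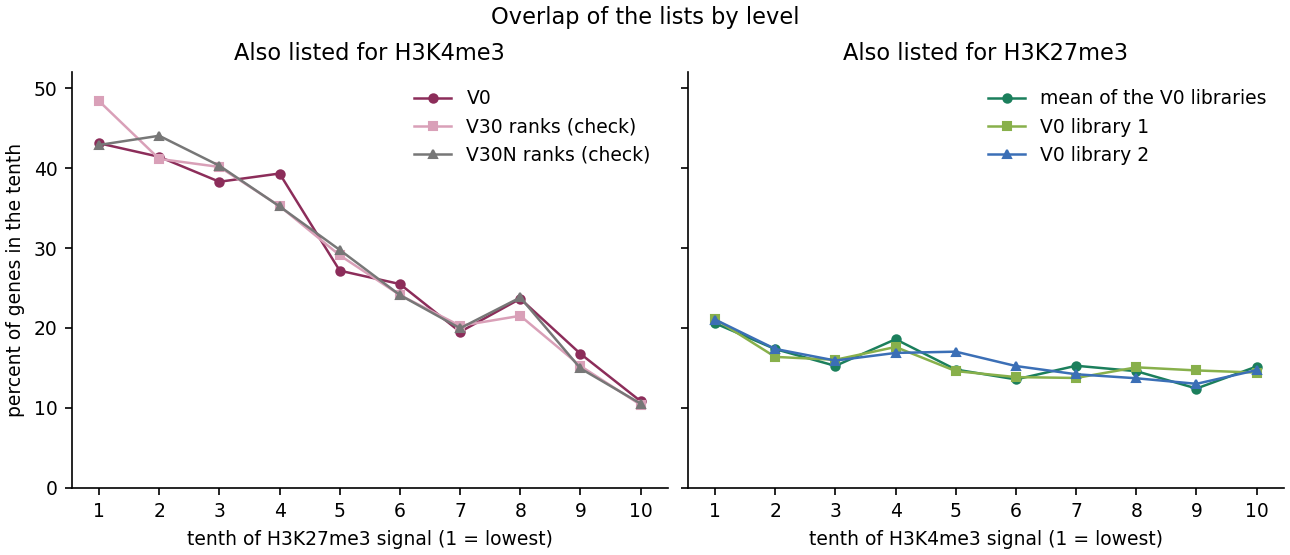
Percent of genes also listed for the other mark, in deciles of H3K27me3 signal (left) and H3K4me3 signal (right), where decile 1 is lowest. Left, the V0 library and the same ranking by the V30 and V30N libraries are lower at the right end than at the left, in V0 10.8% against 43.1%. Right, the mean of the V0 libraries goes from 20.6% to 15.2%, and each library alone lies close to it.

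In H3K4me3, genes with both marks ranked slightly below the others. Their median percentile was 44.3, against 50.9 for H3K4me3-only genes, a difference of -6.59 points, which was -5.91 in library 1 and -6.24 in library 2. The difference had the same sign in both libraries. Of genes with both marks, 28.8% were in the bottom quartile of H3K4me3, against 24.3% of H3K4me3-only genes. In the top quartile were 22.3% and 25.5%.

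Among the 1662 genes with both marks and a level in both H3K4me3 libraries, more H3K27me3 went with less H3K4me3, weakly. The Spearman correlation across genes was -0.132 with the mean, -0.123 with library 1 and -0.134 with library 2, and -0.0524 once the 25% of genes with the lowest level of each mark were left out. Genes are not independent samples here, since all share the same libraries. By quartile of H3K27me3, the median H3K4me3 percentile went from 50.9 in the lowest quartile to 44.6, 40.2 and 34.7 in the highest. Library 1 gave 49.9, 44.5, 42.4 and 34.6, and library 2 gave 48.8, 45.9, 42.8 and 33.5, so each library descended step by step.

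Genes were called opposed when their ranks differed by at least 50 points, with the mean and with each H3K4me3 library alone. H3K27me3 was above H3K4me3 at 144 genes (8.66% of 1662) and H3K4me3 above H3K27me3 at 211 (12.7%). Genes with both marks had a median percentile of 35.0 in H3K27me3 and 44.3 in H3K4me3, which alone favours the second direction. The number that unrelated ranks would give was not computed, so neither count is read as an excess. Without the 25% of genes with the lowest level of each mark, 730 genes with both marks were left, of which 40 (5.48%) and 83 (11.4%) were opposed. The first set had a median H3K27me3 of 283 and a median H3K4me3 of 15.2. At its extreme, Bradi1g69900 had 2202 for H3K27me3 but 9.25 and 8.80 for H3K4me3, and Bradi2g06330, named above, came next. The second set had medians of 42.1 for H3K27me3 and 79.3 for H3K4me3, led by Bradi1g70390 (33.5 against 131 and 104) and Bradi1g06250 (29.7 against 77.1 and 103). The lower mark of these extreme genes was near the bottom of its list. The lowest listed values were 27.3 for H3K27me3, and 7.67 and 6.61 for H3K4me3 in libraries 1 and 2. Such genes may thus be barely listed for that mark.

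High levels of both marks at the same gene were rare. In the top quartile of both marks were 36 of the 1662 genes, or 24 when each H3K4me3 library had to place them there. Few could be: 213 of the 1662 were in the top quartile of H3K27me3 and 22.3% in that of H3K4me3. Unrelated ranks would thus also put few genes in both. In the top decile of both were 2 genes, Bradi1g00410 and Bradi5g18530. Bradi1g00410 had an H3K27me3 signal of 815, percentile 98.1, and H3K4me3 of 81.0 and 119, percentiles 93.8 and 99.0. Bradi5g18530 had 575 for H3K27me3 and 88.2 and 77.7 for H3K4me3, and library 2 placed it at percentile 84.4, below the top decile.

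**Figure D3:**
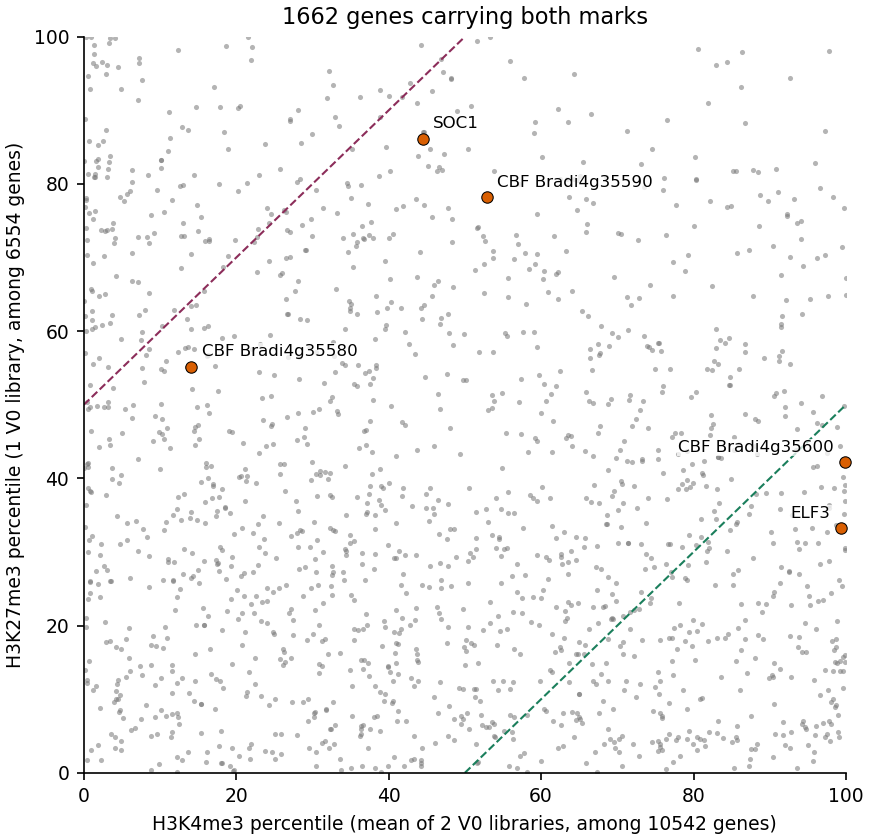
H3K27me3 percentile (1 library) against H3K4me3 percentile (mean of 2 libraries) for 1662 genes with both marks; each point is a gene, and genes of the lists with a level for both marks are orange. Points beyond the dashed lines differ by at least 50 percentile points, and the upper right corner, where both marks would be high, is sparse, with 2 genes in the top decile of both.

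The files do not pair loci with gene names, and none of the 16434 loci matched the reference gene table used here. Names were attached to 63 loci of 8 lists from memory of published locus assignments, which no file used here could check. The names LUX, PRR73, EZL1, SWN5 and CESA9 are the least certain, so values printed beside a name belong firmly to the locus alone. Of these, 47 were listed for a mark: 18 for H3K27me3 alone, 9 for both and 20 for H3K4me3 alone. Listed for H3K27me3 were therefore 27 of 47, beside the 39.9% of all listed genes. The lists were made with earlier results of these data known, so this share and those of single lists below only describe these loci. The photosynthesis genes planned as a check of the tissue label could not be picked out without gene descriptions.

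Flowering genes held some of the strongest H3K27me3. Of 12 loci, 10 were listed, 7 of them for H3K27me3, beside 39.9% of all listed genes. The median percentile of the 7 in that mark was 86.1, beside 50 for the whole list by definition. FUL2 (Bradi1g59250), a MADS-box relative of VRN1, had 1202 (percentile 99.7), and VRN1 (Bradi1g08340), the MADS-box gene that cold induces to promote flowering, had 726 (percentile 97.1). The florigen genes FT1 (Bradi1g48830) and FT2 (Bradi2g07070) had 565 and 337, and the MADS-box gene SOC1 (Bradi1g77020) had 360. VRN2L (Bradi3g10010), related to the cereal repressor VRN2, lay nearer the middle with 178, and the CONSTANS-like photoperiod gene CO1 (Bradi1g43670) was low with 47.0.

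Of these 7 genes, FT1 and CO1 were not listed for H3K4me3, and 4 of the other 5 had a filled value in library 1. Over all genes with both marks 10.7% were filled there. VRN1 and FT2 were filled in both libraries, so neither has an H3K4me3 level. Of the 11752 genes of the H3K4me3 list, 3 were filled in both. FUL2 and VRN2L had values of their own in library 2, 29.6 and 34.2, at percentiles 13.8 and 17.6. SOC1 was measured in both libraries, at 46.5 and 49.9, near the middle of the list. The red-light receptor genes PHYC (Bradi1g08400) and PHYB (Bradi1g64360) were listed for H3K4me3 alone. PHYC had 69.4 and 80.3, at percentile 86.8 in the first library and 86.7 in the second, while PHYB had 51.2 and 83.3 and moved from percentile 61.6 to 89.0. EZL1 (Bradi1g48340), an Enhancer-of-zeste-like gene of the family that writes H3K27me3, was low in H3K4me3, with 17.5 and 15.3. The median H3K4me3 percentile of the 4 flowering genes with a level was 61.7, and it was 13.9 when filled values were kept as levels.

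Among circadian clock genes, 4 of 7 loci were listed, all of them for H3K4me3, beside 71.5% of all listed genes. ELF3 (Bradi2g14290), a component of the evening complex, had both marks with opposed ranks, H3K27me3 of 73.3 (percentile 33.2) and H3K4me3 of 123 ± 0.452 (SD, n = 2; percentile 99.4). LUX (Bradi2g62067), its partner in that complex, had 53.5 and 67.9 for H3K4me3, above the middle in both libraries. TOC1 (Bradi3g48880), a pseudo-response regulator, had 51.9 and 48.0, which put it at percentile 63.1 in library 1 and 36.0 in library 2, so its rank is uncertain. PRR73 (Bradi1g65910), another pseudo-response regulator, was near the bottom, with 10.1 and 11.7.

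The cold-response families differed in their marks at baseline. Of 6 loci of the ice recrystallization inhibition (IRI) family on chromosome 5, genes for proteins that limit ice growth, 5 were listed, all for H3K27me3 alone. That class held 28.5% of all listed genes. The 5 IRI loci lay close together in level, from 239 at Bradi5g27330 to 366 at Bradi5g27350, or percentiles 74.7 to 86.4. The CBF loci on chromosome 4, genes for activators of cold-responsive transcription, were mixed: of 9 loci, 1 had H3K27me3 alone, 3 both and 2 H3K4me3 alone. Over all listed genes these classes held 28.5%, 11.4% and 60.1%. The remaining 3 CBF loci were in neither list. The locus with H3K27me3 alone, Bradi4g35640, was at the bottom of that list, with 28.0 (percentile 0.450). Bradi4g35600 had H3K27me3 of 94.6 and H3K4me3 of 109 and 195, which differ widely but are near the top of the list in both libraries (percentile 99.8 by the mean). Its neighbour Bradi4g35590 had 268 for H3K27me3 and 45.0 and 59.8 for H3K4me3, and Bradi4g35580 had 135 and, for H3K4me3, 20.2 and 31.7. The balance of marks thus differed between adjacent loci: percentile of H3K27me3 minus that of H3K4me3 was 41.1 at Bradi4g35580, 25.3 at Bradi4g35590 and -57.6 at Bradi4g35600.

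Of 7 stomatal development loci, 4 were listed, 3 of them for H3K27me3 alone, beside 28.5% of all listed genes. SPCH2 (Bradi3g09670) and SPCH1 (Bradi1g38650), transcription factors that start the stomatal lineage, had H3K27me3 alone, at 974 and 388, percentiles 99.1 and 87.7. MUTE (Bradi1g18400), which acts later in the lineage, had H3K27me3 alone at 132, and ICE1 (Bradi4g17460), a partner of these factors, had H3K4me3 alone at 23.2 and 44.2. The stomatal lineage is a small share of the cells of a shoot, and the average over cell types cannot show in which cells the marks lay.

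Of 8 cellulose synthase loci, 6 were listed, 3 for H3K27me3 alone and 3 for H3K4me3 alone. A single mark was also the rule for listed genes in general (88.6%). CESA1 (Bradi2g34240) and CESA3 (Bradi1g54250), subunits for primary walls, had H3K4me3 of 70.6 and 72.7, and of 45.2 and 56.7. CESA4 (Bradi3g28350) and CESA7 (Bradi4g30540), subunits for secondary walls, had H3K27me3 of 38.5 and 97.4, percentiles 9.64 and 43.2. CESA8 (Bradi2g49912), the remaining secondary wall subunit, went with the first pair, with H3K4me3 of 44.7 and 54.3, and CESA9 (Bradi1g36740) had H3K27me3 of 195.

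Of 7 other loci of development, 6 were listed, 4 for H3K27me3 alone and 2 for H3K4me3 alone, again near the general share of single marks. Of the auxin transporters, PIN1b (Bradi3g59520) had H3K4me3 of 78.6 and 94.6, percentiles 92.6 and 95.2, whereas PIN1a (Bradi1g45020) and SoPIN1 (Bradi4g26300) had H3K27me3 of 168 and 41.2. MOS1 (Bradi1g18580), a transcription factor of spikelet meristems, had H3K27me3 of 287, percentile 80.6. SWN5 (Bradi3g13117), a NAC factor of secondary wall formation, had 119. BRI1 (Bradi2g48280), the brassinosteroid receptor, had H3K4me3 of 68.0 and 80.6.

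Reference genes for expression assays, chosen in the field for steady transcription, had H3K4me3 alone at all 6 listed of 7 loci, yet mostly at low level. H3K4me3 alone was also the commonest class of all listed genes (60.1%). GAPDH (Bradi3g14120), a gene of glycolysis, had 96.2 and 106, percentiles 97.5 and 97.7, and UBC18 (Bradi4g00660), for a ubiquitin-conjugating enzyme, had 62.4 and 63.4. The other 4 lay between percentiles 7.30 and 18.4 in either library: the polyubiquitin genes UBI10 (Bradi1g32860; 17.2 and 19.5) and UBI4 (Bradi3g04730; 20.6 and 35.0), SamDC (Bradi5g14640; 24.5 and 21.6), an enzyme of polyamine synthesis, and the elongation factor EF1a (Bradi1g06860; 27.5 and 22.4). The list's median was at percentile 14.3.

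**Figure D4:**
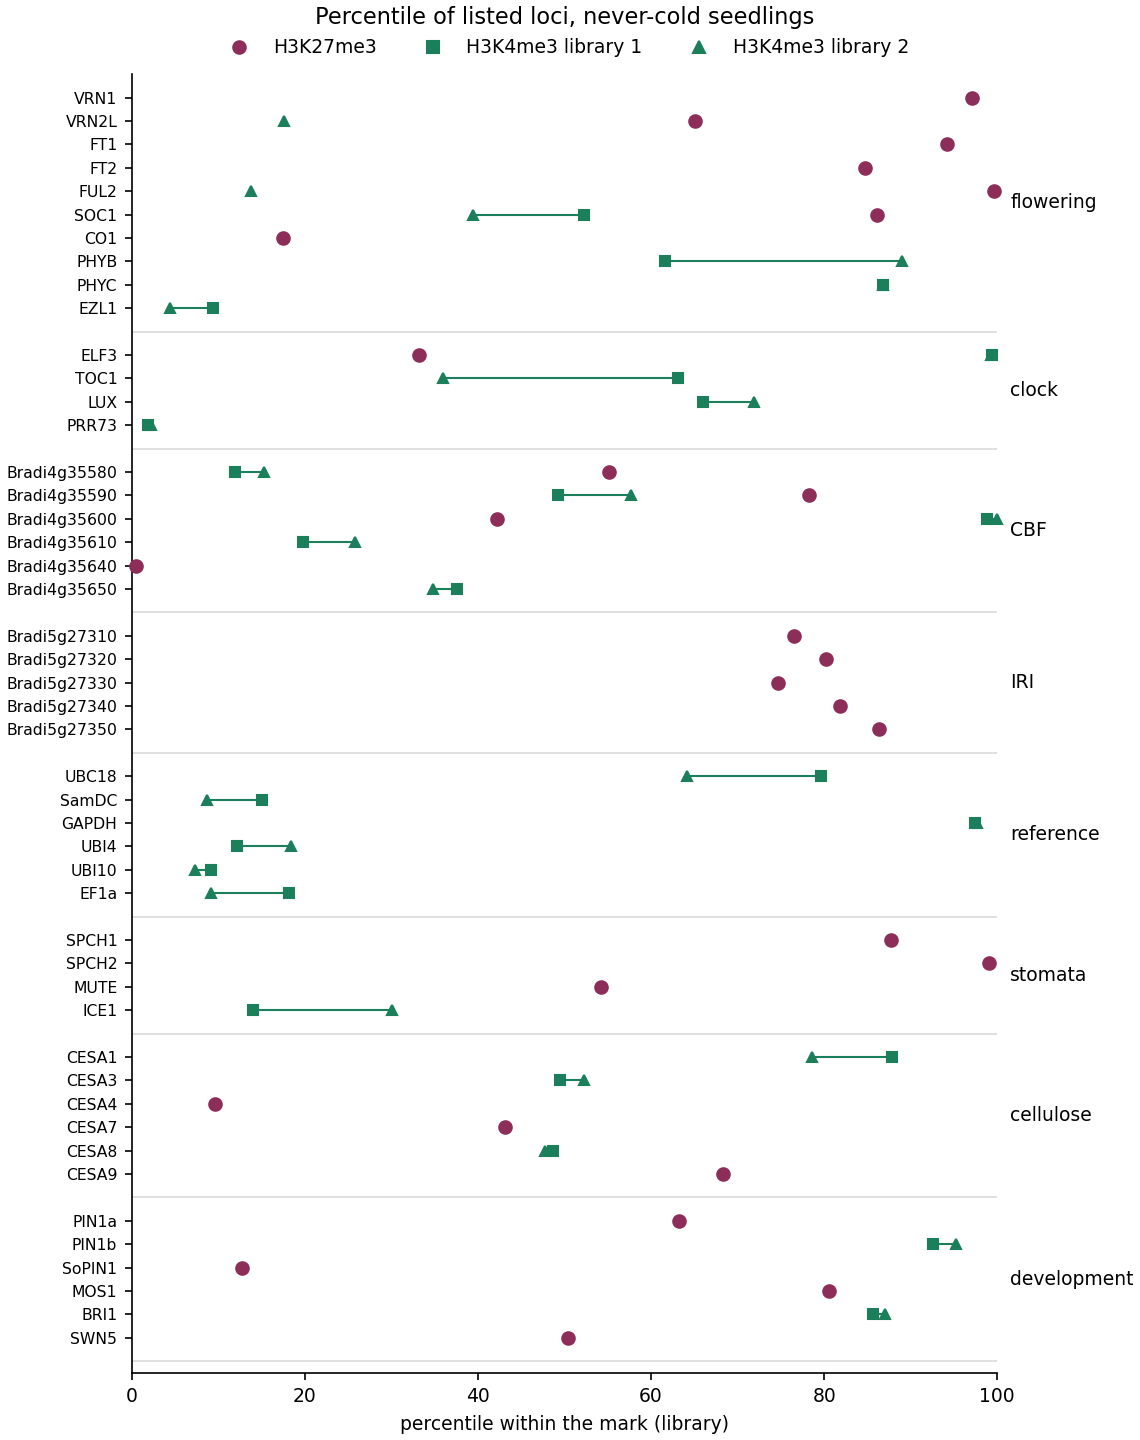
Percentile within each mark of the 47 listed loci of the gene lists in never-cold seedlings; purple circles are H3K27me3, and green squares and triangles, joined by a line, are H3K4me3 libraries 1 and 2 (filled values left out). Flowering, IRI and stomatal genes reach high H3K27me3 percentiles, and 4 of 6 reference genes lie below percentile 20 in H3K4me3.

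Chromosome 4 had the highest share of listed genes with H3K27me3. A locus identifier gives the chromosome in the digit after Bradi and the order along it in the number that follows. Of listed genes, 45.5% carried H3K27me3 on chromosome 4, against 38.9% on chromosome 1, 38.8% on chromosome 2, 38.2% on chromosome 3 and 40.1% on chromosome 5, a difference of 6.71 points from the other chromosomes together. Both lists enter this share: per 1000 locus numbers chromosome 4 had 26.2 H3K27me3 genes, against 21.3 to 24.2 on the others, and 37.8 H3K4me3 genes, the lowest, against 38.6 to 45.3. Chromosome 4 also had the highest median H3K27me3 percentile, 55.5, where the others had 47.0 to 51.0, and 14.0% of its H3K27me3 genes were in the top decile, against 8.85% to 9.32%. Its median H3K4me3 percentile of 47.4 was the lowest, close to the 47.8 of chromosome 5, with 52.3 on chromosome 1 at the other end. In library 2, chromosome 5 was lower, at 46.5 against 47.9. Genes with both marks varied less, from 10.9% of listed genes on chromosome 2 to 12.8% on chromosome 5.

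Part of the excess on chromosome 4 lay in 1 stretch. In bins of 5000 locus numbers, the share of listed genes with H3K27me3 ranged from 23.9% to 60.5% over 58 bins, with a median of 39.8%. The highest share was in numbers 10000 to 14999 of chromosome 4, where 150 of 248 genes had H3K27me3, with the highest median H3K27me3 percentile of any bin (75.3) and a median H3K4me3 percentile of 41.8. By number of H3K27me3 genes 6 bins were above it, the highest with 162, whereas its 122 H3K4me3 genes were few beside a median of 222 per bin, with 2 bins lower. Its high share thus goes with few H3K4me3 genes as well as with many H3K27me3 genes (median per bin 117.5). Without that bin, chosen after its value was seen, 44.0% of genes on chromosome 4 had H3K27me3, 5.14 points above the others. The lowest share was in numbers 25000 to 29999 of chromosome 2, with 47 of 197 genes. Numbers give order and not distance, and loci in neither list are not counted.

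For ends and middles, each chromosome's range of locus numbers was divided into equal parts, 5 (quintiles) or 10 (deciles). The outer quintiles together had H3K27me3 at 40.3% of listed genes and the middle quintile at 38.0%, 2.31 points apart, and on chromosomes 1 and 4 the middle was the higher with differences of -0.764 and -0.310 points. With deciles the outer share was 43.1%, 5.13 points above the same middle, and above it on all 5 chromosomes, by 2.08 to 9.80 points. The deciles next to the ends had 38.5% and 36.4%, and the highest share of any was inside, 47.5% in decile 3, where chromosome 4 had 71.6%. The ends were therefore not the zones of highest share. H3K4me3 levels were lowest in the middle quintile, at a median percentile of 45.4, or 46.8 and 44.2 in the libraries, against 50.7 in the first quintile and 54.1 in the last.

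**Figure D5:**
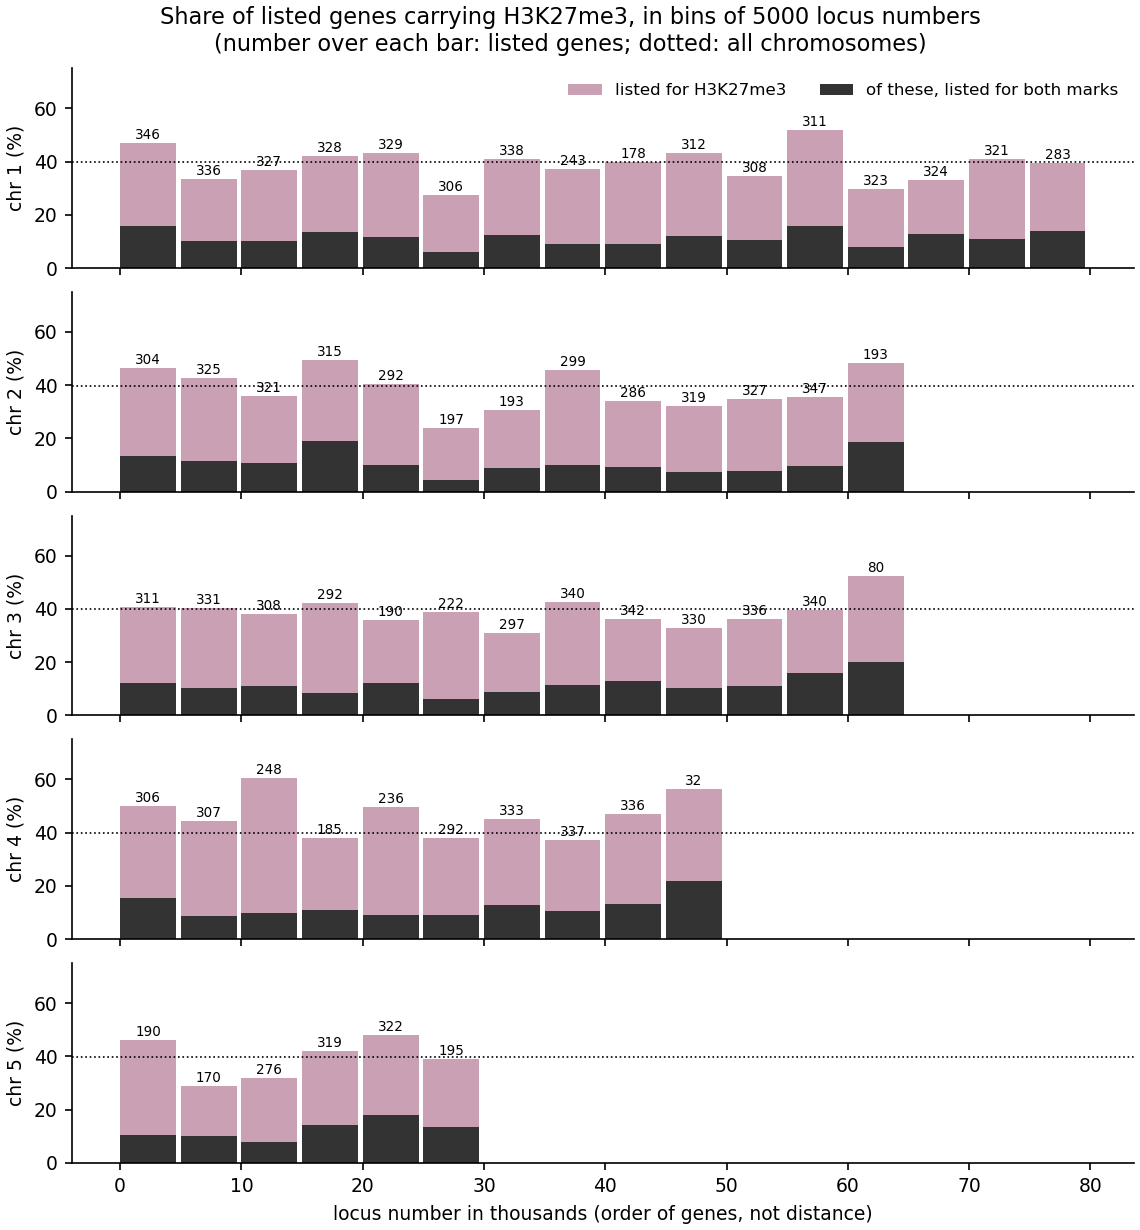
Percent of listed genes carrying H3K27me3 (pale) and both marks (dark) in bins of 5000 locus numbers along each chromosome; numbers over bars are the listed genes, and the dotted line is the 39.9% of all chromosomes. The bin of chromosome 4 from 10000 to 14999 reaches 60.5%; the last bins of chromosomes 3 and 4 hold 80 and 32 genes.

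H3K27me3 genes lay next to each other. A listed gene was followed, within 10 locus numbers, by another listed gene in 9841 cases, and this next gene had H3K27me3 in 42.6% and H3K4me3 in 69.7% of them. After a gene with H3K27me3 alone the next had H3K27me3 in 65.1%, after a gene with both marks in 61.7%, and after a gene with H3K4me3 alone in 26.3%. Genes with both marks were thus followed by H3K27me3 nearly as often as H3K27me3-only genes. After 18.1% of genes with both marks (221 of 1224) came another such gene, a class that held 11.4% of all listed genes. However, 755 of the 1224 next genes had H3K27me3, and genes with both marks made up 28.6% of the H3K27me3 list. The 18.1% is therefore not read as a grouping of these genes apart from that of H3K27me3 genes.

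Neighbours were also alike in H3K27me3 level and hardly in H3K4me3 level. Over 2732 pairs of adjacent H3K27me3 genes the Spearman correlation of signal was 0.471, and 6 pairs had identical values. Over 4326 pairs of adjacent H3K4me3 genes it was 0.08, with 0.07 in library 1 and 0.08 in library 2. Adjacent genes may share reads of a region, and the part this has in the likeness was not tested.

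Longer runs of adjacent H3K27me3 genes had higher median levels, but single long runs varied widely. A run ended wherever the next H3K27me3 gene was more than 10 locus numbers away, so run lengths depend also on gaps in the numbering. The 2253 genes with no adjacent H3K27me3 gene had a median signal of 90.8, genes in runs of 2 had 108, of 3 had 143, of 4 had 147, and the 769 genes in runs of 5 or more had 199. The longest run, 16 genes from Bradi1g00280 to Bradi1g00427 near the start of chromosome 1, ranged from 292 to 1311 with a median of 704. Past its end, the next listed gene, Bradi1g00440, also had H3K27me3 (173). The run had H3K4me3 at 1 gene, Bradi1g00410, which was also the gene in the top decile of both marks in every library. Among the other long runs, 8 genes from Bradi5g02780 to Bradi5g02850 had a median of 999.9 and H3K4me3 at 3 of them, and 8 from Bradi2g06290 to Bradi2g06360 a median of 870 and H3K4me3 at 2. The run of 10 genes from Bradi1g49360 to Bradi1g49450 had no H3K4me3 gene and a median of 245. Lower still were 10 genes from Bradi4g34500 to Bradi4g34590, with a median of 151, and 8 from Bradi5g24990 to Bradi5g25060, with 126.

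H3K4me3 was lower at genes with H3K27me3 neighbours. Among H3K4me3-only genes with a listed gene on each side, the median H3K4me3 percentile was 55.8 where neither neighbour had H3K27me3 (1608 genes with a level), 50.8 where 1 had it (1024 genes) and 39.8 where both had it (231 genes). Library 1 gave 54.6, 50.9 and 43.6, and library 2 gave 55.4, 50.2 and 42.1, the same order in each. Genes with both marks showed a lower value mainly with 2 such neighbours, at 36.6, against 45.8 with none and 47.7 with 1. Library 1 gave 39.1, 50.4 and 49.4 in that order, and library 2 gave 35.9, 48.1 and 46.9. For H3K27me3 itself, genes with H3K27me3 alone had a median percentile of 71.8 between 2 H3K27me3 neighbours and 51.6 between none, and genes with both marks had 46.5 and 27.7.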

How the data were processed

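Chromatin immunoprecipitation libraries of never-cold seedlings were analysed from 1 deposited table per library, holding 1 signal value per gene. Per the submitters' processing notes, the authors used Bowtie2 2.1.0. How signal per gene was called, corrected for input and normalized, and on which build and annotation, is not given in the sources used here. Depth is therefore unknown, and values carry no counting interval. Tables were joined on the locus identifier. H3K4me3 level was the mean of both libraries at genes without the library's repeated fill value. Percentiles were mid-ranks within a mark's list. Adjacent loci were those with locus numbers at most 10 apart. With 1 H3K27me3 library no test between marks was possible, and none was made: results are descriptions, with H3K4me3 values also given by library. Gene lists by description and promoter sequences were planned but need annotation not used here. Named were the listed loci of the gene lists and at most 2 genes from each extreme (highest level of each mark, most opposed ranks, highest in both). The lists, and the choice of this comparison, were made with earlier results of these data known. Measures were tested on simulated data. Calculations used Python 3.11.15, numpy 2.4.6, pandas 2.3.3, scipy 1.17.1 and matplotlib 3.10.9.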

Additional observations from a re-analysis of the deposited data

How the results depend on the processing

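Differences between classes and of chromosome 4 from the others, and the correlation of the marks, kept their direction under the alternatives run. So did outer minus middle H3K27me3 share over all chromosomes, but not on chromosomes 1 and 4. With deciles in place of quintiles this share difference went from -0.764 to 2.96 points on chromosome 1 and from -0.310 to 5.28 on chromosome 4. The cause of each shift was not tested. No paired analysis was possible because H3K27me3 had a single library and no test was made. The H3K4me3 rank difference of genes with both marks (-6.59 points) was -6.24 to -5.91 with either library alone, -6.28 with the mean of log2 values, -6.24 with the other library's value at filled genes, -7.06 with filled values kept and -4.47 without the lowest 25% of each mark. In the same order, the correlation of the marks (-0.132) was -0.125 to -0.124, -0.131, -0.124, -0.126 and -0.0524, and -0.143 with the V30N library. Leaving out the lowest 25% (which also drops filled genes) gave 730 genes with both marks in place of 1872, 40 and 83 opposed genes (5.48% and 11.4%) in place of 144 and 211 (8.66% and 12.7%), and an H3K27me3 gene after an H3K27me3 gene in 72.0% of cases in place of 64.1%, where all listed genes gave 47.2% in place of 42.6%. A step of up to 20 locus numbers gave 60.1%, beside 40.8%. Deciles gave 5.13 points between outer and middle zones of all chromosomes in place of 2.31. With filled values kept, median H3K4me3 percentiles were 13.9 for flowering, 39.1 for CBF and 54.3 for cellulose synthase genes, in place of 61.7, 35.1 and 49.7. The flowering and cellulose synthase medians thus crossed the middle of the list. TOC1 and SOC1 crossed it between the H3K4me3 libraries. So did the CBF locus Bradi4g35590 (percentiles 49.3 and 57.7 in libraries 1 and 2) and CESA3 (49.5 and 52.2), by less. Opposed genes by either H3K4me3 library alone numbered 166 to 196 and 294 to 307.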
